A study of Mus musculus with 2 samples.

Results

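Cadherins and protocadherins are transmembrane proteins that let cells recognise and adhere to each other. The genes examined were all 92 whose symbol begins with Pcdh, or with Cdh and a digit, among 31053 genes measured in an embryonic day 18 (E18) library and 31054 in a postnatal day 2 (P2) library of mouse forebrain cells. Of these, 57 were clustered protocadherins (14 Pcdha, 22 Pcdhb and 21 Pcdhg genes) and 35 lay outside the clusters. The 35 were 4 delta1 protocadherins (Pcdh1, Pcdh7, Pcdh9 and Pcdh11x), 5 delta2 protocadherins (Pcdh8, Pcdh10, Pcdh17, Pcdh18 and Pcdh19), 3 other protocadherins, 5 type I cadherins, 13 type II cadherins and 5 other cadherins.

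The P2 cells came from the dorsal and lateral ventricular-subventricular zone (V-SVZ, the germinal layer lining the lateral ventricles) of Emx1Cre;R26Eyfp fl/fl mice, after the cortex had been taken away. In this line EYFP is switched on by Cre in cells that have expressed Emx1 and stays on in their descendants, so it marks the lineage of the cortical primordium. The E18 cells came from CD1 mice and from tissue above the lateral ventricles that held both the cortex and the dorsal V-SVZ. Both were digested with papain and sorted as PI-negative, DRAQ5-positive cells, which keeps intact nucleated cells. Each age was 1 library, so age cannot be told apart from dissection, mouse line or library, and no test across replicates was possible. The intervals below are exact 95% intervals that cover counting error only.

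After filtering, 2296 P2 cells with a median of 12525 UMIs (unique molecular identifiers, each standing for 1 captured transcript) and 2474 E18 cells with a median of 6567 UMIs remained, and the libraries shared 0 cell barcodes. Clusters were named from marker genes as X-like, and levels are in CPM, a gene's UMIs per 1000000 UMIs summed over the cells of the cluster. The members did not take part in the clustering. The E18 excitatory neuron-like clusters together held 4216 CPM of the 9 excitatory neuron markers, against 503 CPM in E18 progenitor-like clusters, and 294 CPM of the 13 stem cell markers, against 14483 CPM. The P2 microglia-like cluster had the lowest sums among P2 clusters of 25 or more cells. Its clustered genes summed to 20.2 CPM (12.2 to 31.6) and its other members to 24.5 CPM (15.5 to 36.8). Of the 23 UMIs of those other members, 5 were Cdh5 and 4 were Cdh23. The background of free RNA was not measured.

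Clustered protocadherins are made from arrays of alternative first exons, each with its own promoter. Each neuron uses a small set of them, and matching sets on neighbouring branches of the same cell lead to repulsion and self-avoidance. Delta protocadherins and type II cadherins are instead known for marking groups of neurons, axon tracts and brain regions, while the type I cadherin N-cadherin (Cdh2) holds the neuroepithelium together at adherens junctions.

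The members outside the clusters each have their own promoter. Of the 92 members, 22 had a RefSeq promoter window, in 25 windows on GRCm38.p6, and the 250 bases before the annotated start are shown for 4 members that recur in the comparisons of glia, progenitors and neurons below. Capitals mark CG dinucleotides, the sites at which DNA can be methylated. Pcdh10 lies at chr3:45378148-45378397, Pcdh17 at chr14:84443313-84443562, Pcdh7 at chr5:57717831-57718080 and Cdh10 at chr15:18820079-18820328, all on the plus strand.
Pcdh10: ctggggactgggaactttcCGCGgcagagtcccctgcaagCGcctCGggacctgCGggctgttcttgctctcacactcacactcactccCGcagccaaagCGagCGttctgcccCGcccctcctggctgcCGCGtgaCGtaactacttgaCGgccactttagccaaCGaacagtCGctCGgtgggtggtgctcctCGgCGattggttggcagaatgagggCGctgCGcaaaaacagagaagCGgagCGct
Pcdh17: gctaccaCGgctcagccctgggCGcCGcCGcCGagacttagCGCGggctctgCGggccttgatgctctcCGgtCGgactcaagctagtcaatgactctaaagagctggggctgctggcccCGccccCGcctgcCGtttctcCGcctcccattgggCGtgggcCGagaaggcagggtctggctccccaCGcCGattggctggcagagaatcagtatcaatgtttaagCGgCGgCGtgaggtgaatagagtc
Pcdh7: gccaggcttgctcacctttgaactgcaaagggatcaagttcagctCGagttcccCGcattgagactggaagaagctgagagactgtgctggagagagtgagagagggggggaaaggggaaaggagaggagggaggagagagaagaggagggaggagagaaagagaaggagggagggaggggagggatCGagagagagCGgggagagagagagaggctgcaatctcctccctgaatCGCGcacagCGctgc
Cdh10: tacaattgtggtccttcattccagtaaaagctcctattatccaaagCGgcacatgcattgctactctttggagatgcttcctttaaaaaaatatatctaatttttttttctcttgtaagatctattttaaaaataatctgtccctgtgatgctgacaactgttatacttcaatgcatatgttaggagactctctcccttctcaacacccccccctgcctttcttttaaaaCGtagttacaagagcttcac
The Pcdh10 stretch held 22 CG dinucleotides and that of Pcdh17 held 21, against 7 for Pcdh7 and 2 for Cdh10. Their observed over expected CG ratio lay above that of 87.2%, 81.1%, 53.7% and 38.0% of all 32851 windows, in the same order of genes. Over the 25 member windows the median was 10 CG dinucleotides and 58.4% G or C, against 6 and 52.4% over all windows. The homeodomain core TAATTA, read on both strands, stood in 1 of the 25 windows (4%; Cdh7) and in 4.84% of all windows. The E-box CAGATG, searched on both strands, stood in 2 (8%; Cdh7 and Cdh24) and in 14.4% of all windows. Neither motif was in the 4 printed stretches, which says only that these letters are absent from them.

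All 57 clustered genes lie on chromosome 18, and the structure of the locus limits what a 3′-biased count can separate. In the GENCODE vM21 annotation of GRCm38, matched by gene ID for 92 of 92 members, each of the 14 alpha genes shared 2860 to 2864 exonic bases with other alpha genes, out of a median of 5356. Each of the 21 gamma genes shared 2116 to 3157 exonic bases, out of a median of 4882. Each of the 14 alpha and 21 gamma genes has at least 1 annotated transcript that ends in such a shared exon, as do 21 of the 24 alpha and 27 of the 37 gamma transcripts. For Pcdha11 (ENSMUSG00000102206) 3 of 5 transcripts do. Of the 22 beta genes, which have an exon each to themselves, only Pcdhb21 and Pcdhb22 overlapped another member, by 455 bases, and 0 of the 35 members outside the clusters did. Counts of single alpha and gamma genes are therefore uncertain, and the sums over the alpha and gamma groups are used first. Whether UMIs from the shared exons are in these counts was not tested. The alpha and gamma sums, and their levels beside beta, may therefore be incomplete as well. The symbol Pcdha11 stands for 2 gene IDs, which are kept apart below.

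Across the clusters of 25 or more cells, 16 members reached 50 CPM in at least 1 cluster, 13 of them in the P2 library and 15 in the E18 library, and all 16 lay outside the clusters. The heat map of their levels shows that some, such as Pcdh15, were high in few clusters and others, such as Cdh2, in nearly all. Of the members outside the clusters with 100 or more UMIs, the highest cluster stood apart from the second by its counting interval for 10 of 20 in the P2 library and 9 of 17 in the E18 library. The same held for 0 of 14 clustered genes at P2 and 0 of 4 at E18. The highest cluster lay a median of 7.66-fold above the median cluster for the members outside the clusters at P2 and 6.35-fold at E18, against 2.71-fold and 2.01-fold for the clustered genes. The clustered genes had fewer UMIs, 4905 at P2 and 1776 at E18 in the kept cells, against 24797 and 13270 for the members outside the clusters, so a cluster-specific clustered gene would be harder to detect.

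**Figure D1:**
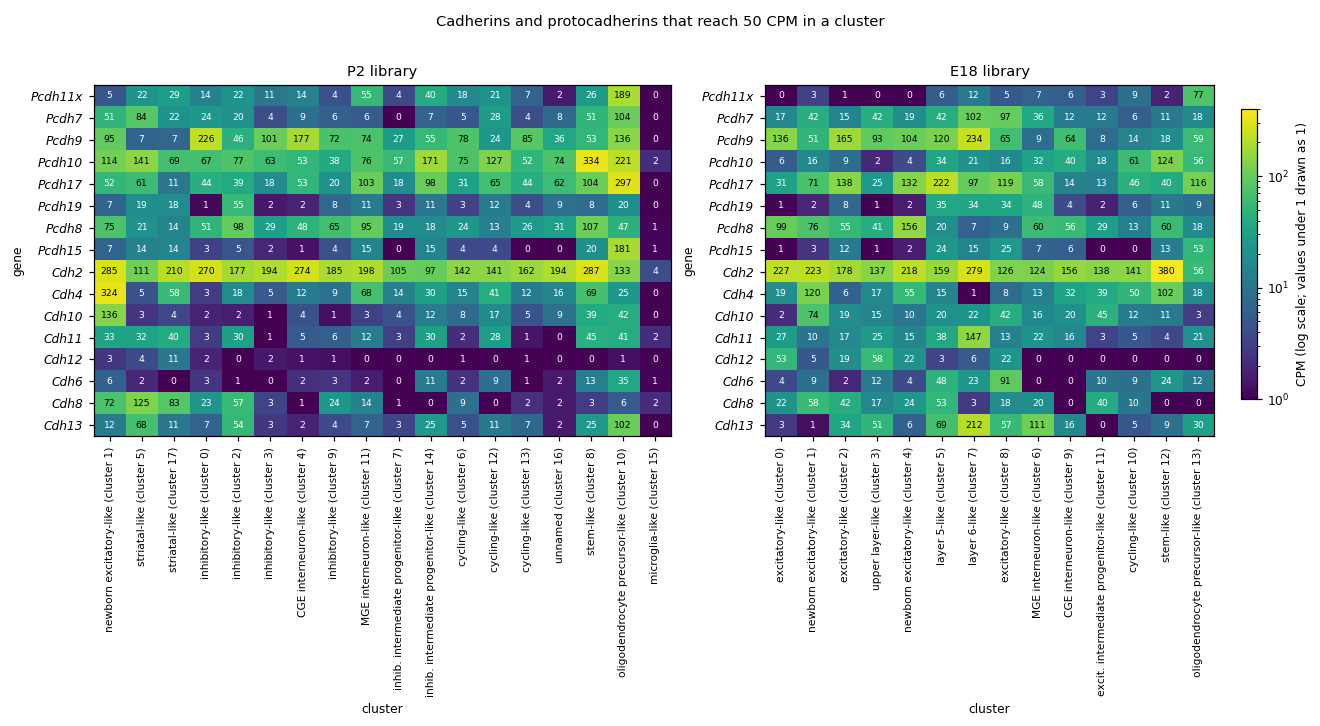
Levels of the 16 members that reached 50 CPM (rows) in each cluster of 25 or more cells (columns), with the P2 library on the left and the E18 library on the right; the colour is the level in CPM on a log scale and the figure in each cell is the rounded level. Pcdh15, Pcdh11x and Pcdh17 peak at P2 in the oligodendrocyte precursor-like cluster (181, 189 and 297 CPM), and Cdh11, Cdh13 and Pcdh9 peak at E18 in the layer 6-like cluster (147, 212 and 234 CPM).

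Among type I cadherins, Cdh2 was broadly present. At P2 it ran from 96.8 CPM to 287 CPM (264 to 310) in all clusters except the microglia-like, which had 4.26 CPM, and its highest level, in the stem cell-like cluster, was not apart from that of newborn excitatory neuron-like cells (285 CPM). At E18 the stem cell-like cluster had the highest level, 380 CPM (331 to 436), and the oligodendrocyte precursor-like cluster the lowest, 56.3 CPM (33.9 to 88.0). Cdh4, R-cadherin, was far more restricted. It reached 324 CPM (302 to 346) in the P2 newborn excitatory neuron-like cluster, with 69.4 CPM (58.5 to 81.6) in the P2 stem cell-like cluster next, and had 2.90 CPM in the Prokr2-led inhibitory cluster. At E18 it was highest in a newborn excitatory neuron-like cluster at 120 CPM (103 to 138) and in the stem cell-like cluster at 102 CPM (77.0 to 132), which do not differ beyond their intervals, and layer 6-like neurons had 0.933 CPM (0.0236 to 5.20).

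Type II cadherins are known for sorting neurons into pools and areas, and the 5 that reached 50 CPM had their highest E18 levels in excitatory neuron-like clusters. At E18, Cdh11 was at 147 CPM (125 to 172) in layer 6-like neurons, against 37.6 CPM (30.1 to 46.4) in layer 5-like neurons, the next highest cluster. Cdh6 was highest in the excitatory cluster led by Rorb and Inhba, at 90.5 CPM (75.1 to 108), against 47.6 CPM (39.1 to 57.5) in layer 5-like neurons, and had 0 UMIs in both interneuron-like clusters. The Cdh6 and Cdh11 peaks were thus in separate excitatory populations. Cdh12 reached 58.5 CPM (48.3 to 70.1) in upper-layer-like neurons and 52.9 CPM (43.0 to 64.4) in the excitatory cluster led by Gabra2 and Cntn2, and had 0 UMIs in the stem cell-like and oligodendrocyte precursor-like clusters. Cdh8 was at 58.3 CPM (47.0 to 71.5) in the newborn excitatory neuron-like cluster led by Pcp4 and Rnd2. Layer 5-like neurons had 52.9 CPM (43.9 to 63.2) of Cdh8, and the other newborn excitatory neuron-like cluster, led by Calb2 and Sema3c, had 24.1 CPM. Cdh10 was highest in the Pcp4-led newborn cluster, at 74.2 CPM (61.3 to 88.9), against 10.4 CPM in the Calb2-led one.

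At P2, where the cortex had been removed, Cdh8 was highest in striatal projection neuron-like cells, at 125 CPM (110 to 141), followed by 83.4 CPM (52.8 to 125) in the second cluster of that name. Cdh10 reached 136 CPM (122 to 151) in newborn excitatory neuron-like cells, and 41.7 CPM (32.2 to 53.0) in oligodendrocyte precursor-like and 39.2 CPM (31.2 to 48.7) in stem cell-like cells. Cdh10 was therefore highest in a newborn excitatory neuron-like cluster in both libraries, although the other E18 cluster of that name had only 10.4 CPM. Cdh11 had 45.0 CPM (36.3 to 55.0) in stem cell-like, 41.0 CPM (31.7 to 52.3) in oligodendrocyte precursor-like and 39.9 CPM (19.9 to 71.3) in striatal-like cells, which do not differ beyond their intervals. Cdh12 did not exceed 10.9 CPM (2.24 to 31.8) in any P2 cluster. Cdh6 was highest in oligodendrocyte precursor-like cells, at 35.3 CPM (26.7 to 45.9).

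Cdh13, or T-cadherin, is held in the membrane by a lipid anchor and has no cytoplasmic tail. At P2 it was highest in oligodendrocyte precursor-like cells, at 102 CPM (86.5 to 119), with 68.3 CPM (57.3 to 80.8) in the larger striatal-like cluster. At E18 it stood at 212 CPM (185 to 241) in layer 6-like neurons, 111 CPM (90.2 to 134) in medial ganglionic eminence interneuron-like cells and 68.6 CPM (58.3 to 80.2) in layer 5-like neurons, 3 levels that lie apart from each other. It had 0 UMIs in E18 excitatory intermediate progenitor-like cells.

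The delta1 protocadherins Pcdh7 and Pcdh9 varied among neuron types, and Pcdh11x, an X-linked gene, peaked in glia. At P2 Pcdh9 ranged from 226 CPM (209 to 245) in the Prokr2-led inhibitory cluster and 177 CPM (160 to 195) in caudal ganglionic eminence interneuron-like cells down to 7.03 CPM (3.84 to 11.8) in striatal-like neurons. At E18 it was at 234 CPM (206 to 265) in layer 6-like neurons and 8.77 CPM (3.78 to 17.3) in medial ganglionic eminence interneuron-like cells. Pcdh9 thus separated neuron types within the same library by more than their intervals. Pcdh7 was at 104 CPM (88.3 to 121) in P2 oligodendrocyte precursor-like cells and 83.9 CPM (71.6 to 97.6) in the larger striatal-like cluster. At E18 it was at 102 CPM (83.5 to 123) in layer 6-like neurons and 97.2 CPM (81.2 to 115) in the Rorb-led cluster. Pcdh11x was highest in oligodendrocyte precursor-like cells at both ages, at 189 CPM (168 to 211) at P2, against 54.7 CPM (42.4 to 69.5) in the next cluster, and at 77.1 CPM (50.4 to 113) at E18, against 12.1 CPM (6.45 to 20.7) in the next.

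The delta2 protocadherins, whose cytoplasmic tails can bind the actin-regulating WAVE complex, split between glia and neurons. Pcdh10, which is needed for the growth of striatal axons, was highest in stem cell-like cells at both ages, at 334 CPM (310 to 360) at P2 and 124 CPM (96.1 to 157) at E18. At P2 oligodendrocyte precursor-like cells followed at 221 CPM (198 to 245), and at E18 upper-layer-like neurons were lowest at 2.02 CPM (0.549 to 5.16). Pcdh17, which acts at synapses of basal ganglia circuits, was highest at P2 in oligodendrocyte precursor-like cells at 297 CPM (270 to 325), against 104 CPM (90.9 to 119) in the stem cell-like cluster. At E18 its highest cluster was a neuronal one, layer 5-like cells at 222 CPM (203 to 243). Pcdh8, first known as an activity-induced gene, was at 107 CPM (93.1 to 122) in P2 stem cell-like and 98.2 CPM (84.4 to 114) in the Foxp2-led inhibitory cells, and at 156 CPM (135 to 179) in an E18 newborn excitatory neuron-like cluster against 6.53 CPM (2.62 to 13.4) in layer 6-like neurons. Pcdh19, the X-linked gene of a female-limited epilepsy, reached 55.1 CPM (44.9 to 66.9) in the Foxp2-led P2 cluster, apart from the next at 19.6 CPM (13.3 to 27.8), and 48.2 CPM (35.0 to 64.7) in E18 medial ganglionic eminence interneuron-like cells.

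Pcdh15, best known as part of the tip link of inner ear hair cells, stood at P2 mainly in 1 population, with a highest cluster 44.5-fold above the median cluster, the largest such fold among the 20 members outside the clusters with 100 or more P2 UMIs. It was at 181 CPM (161 to 203) in oligodendrocyte precursor-like cells, against 19.6 CPM (14.1 to 26.6) in stem cell-like cells, the next cluster. At E18 the oligodendrocyte precursor-like cluster had 53.4 CPM (31.6 to 84.3), and the Rorb-led excitatory cluster followed at 25.4 CPM (17.6 to 35.5), which overlaps it. Some members were not seen at all: Cdh1 and Pcdhb1 had 0 UMIs in both libraries, Cdh16 and Pcdh12 in the P2 library, and Cdh3, Cdh19 and Cdh26 in the E18 library.

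The clustered genes differed between neurons and the rest by group. Alpha and beta sums were high in neurons, while the gamma sum was spread over neurons, glia and progenitors. Alpha genes were highest at P2 in striatal projection neuron-like cells, at 60.3 CPM (49.96 to 72.1), and in the Foxp2-led cluster, at 56.7 CPM (46.4 to 68.7), and they had 0 UMIs in microglia-like cells. At E18 the alpha sum was at 12.2 CPM (8.13 to 17.7) in layer 5-like neurons and had 0 UMIs in oligodendrocyte precursor-like cells.

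The beta sum had a wider range among P2 glia. It was at 79.5 CPM (66.2 to 94.7) in P2 oligodendrocyte precursor-like cells and at 17.2 CPM (12.1 to 23.8) in P2 stem cell-like cells. Striatal-like neurons had 107 CPM (93.5 to 123). At E18, medial and caudal ganglionic eminence interneuron-like clusters had 88.8 CPM (70.5 to 110) and 82.3 CPM (59.0 to 112), and the cycling cluster 6.14 CPM (2.25 to 13.4). The gamma sum at P2 lay between 52.7 and 149 CPM in every cluster except the microglia-like one, which had 17.0 CPM (9.74 to 27.7), and at E18 between 21.5 and 53.8 CPM in all 14 clusters. Its lowest E18 value, in the cycling cluster (13.3 to 32.8), overlapped the interval of layer 5-like neurons at 22.7 CPM (17.0 to 29.8).

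**Figure D2:**
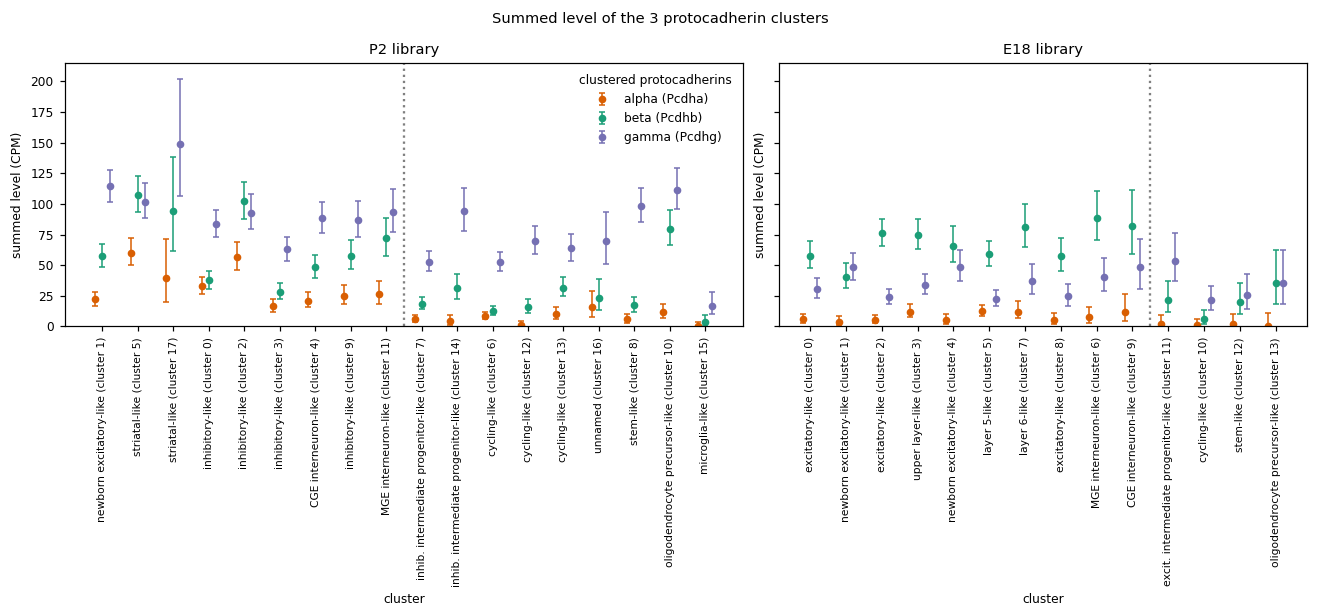
Summed level in CPM of the alpha, beta and gamma protocadherins (colours) in each cluster of 25 or more cells, with the P2 library on the left and the E18 library on the right; points are sums over the cells of a cluster, bars are exact Poisson 95% intervals, and the dotted line separates neuron-like clusters from the rest. Alpha and beta points lie mostly higher on the neuronal side, except beta in P2 oligodendrocyte precursor-like cells (79.5 CPM), while gamma points overlap across the line.

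Clustered genes were sparse in single cells. Any clustered UMI was found in 76.3% of P2 cells and 46.0% of E18 cells, at unequal depth. Among cells with 2 or more UMIs of beta genes, the group whose members are mostly separable, 246 of 351 (70.1%) at P2 and 167 of 225 (74.2%) at E18 held 2 or more beta genes. With few UMIs a cell and 22 genes, such a share is largely set by the counts and is given as a description. When every cell was thinned to 3000 UMIs, leaving out 116 shallower P2 cells and 112 E18 cells, the share with a clustered UMI was 54.8% in the Foxp2-led cluster and 47.3% in striatal-like neurons at P2, against 2.70% in microglia-like cells. Among other P2 clusters, it was 43.9% in oligodendrocyte precursor-like and 31.1% in stem cell-like cells. The Prokr2-led inhibitory cluster had 33.8% and the St18- and Sp8-led one 23.5%, so shares of P2 neurons and other cells overlapped. At E18 the thinned share was 32.1% in layer 6-like neurons, 9.76% in stem cell-like cells and 5.00% in cycling cells. The highest E18 share was 36.2%, in caudal ganglionic eminence interneuron-like cells. Excitatory intermediate progenitor-like cells (19.4%) were close to Rorb-led neurons (19.7%).

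The first set of comparisons asked how neurons differ from progenitors within a library. A member was called where the ratio was 2-fold or more and its counting interval excluded no difference, among genes with 10 or more UMIs in both groups together. Where a group had 0 UMIs, the fold is a lower bound against a floor of 3 UMIs over that group, and a call near 2-fold then rests on that floor. The calls describe these libraries only.

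In the E18 library, 1817 excitatory neuron-like cells were set against 294 progenitor-like cells (stem cell-like, excitatory intermediate progenitor-like and cycling). Of 92 members, 57 were tested, 18 were higher and 4 lower in neurons, where 14.3% of all genes tested were higher, 18.3% lower and 32.6% either. The highest by the bound of the interval was Cdh12, with 344 UMIs (24.6 CPM) in neurons and 0 in progenitors, at least 17.4-fold higher. Pcdh9 followed with 121 CPM in neurons and 13.7 CPM in progenitors (log2 ratio 3.15, 2.62 to 3.73). Cdh13 had 47.7 CPM in neurons and 4.71 CPM in progenitors (3.34, 2.45 to 4.41). Not all excitatory clusters shared its rise. The Gabra2-led cluster had 2.67 CPM and the newborn excitatory neuron-like clusters 1.27 and 6.43 CPM, against 9.10 CPM in stem cell-like cells. Cdh12, Pcdh9 and Cdh13, together with Cdh11 and Pcdh7, were at under 15 CPM in progenitors.

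Cdh11 had 31.5 CPM in E18 neurons and 4.24 CPM in progenitors (log2 ratio 2.89, 1.96 to 4.03). Pcdh7 had 41.2 CPM and 8.96 CPM (2.20, 1.55 to 2.95). Pcdh20, a protocadherin outside the delta groups, had 105 UMIs in neurons and 1 in progenitors (3.99, 1.48 to 9.31). Pcdh17 was present in progenitors as well, at 108 CPM in neurons and 35.4 CPM in progenitors (1.62, 1.28 to 1.97). Cdh8, Pcdh15 and Pcdh19 were also higher, with log2 ratios of 1.02 (0.51 to 1.57), 1.63 (0.55 to 2.97) and 1.16 (0.35 to 2.09). Pcdh19 was at 33.6 to 35.4 CPM in the layer 5-like, layer 6-like and Rorb-led clusters. The other excitatory clusters had 0.504 to 7.64 CPM, against 10.9 CPM in stem cell-like cells. Pcdh15 was above its stem cell-like level of 12.7 CPM only in the same layer 5-like, layer 6-like and Rorb-led clusters. The Cdh8 and Pcdh15 ratios turned round under other cell filters or clusterings, to -0.20 with a mitochondrial share of at most 5% and to -0.06 with coarser clusters.

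Among clustered genes, 8 of the 31 tested were higher in E18 neurons, all of them beta genes. Pcdhb17 had 12.2 CPM in neurons and 3.30 CPM in progenitors (log2 ratio 1.88, 0.81 to 3.22). Pcdhb16 had 62 UMIs in neurons and 0 in progenitors, at least 3.13-fold higher. Pcdhb21 had 49 UMIs, Pcdhb22 had 43 and Pcdhb9 had 40, each against 0 in progenitors, which at the floor of 3 UMIs is at least 2.48-, 2.17- and 2.02-fold higher. The lower ends of the counting intervals of Pcdhb22 and Pcdhb9 lay at log2 ratios of 0.76 and 0.65, under 2-fold. Pcdhb5, Pcdhb7 and Pcdhb20 made up the rest. The 4 members that were lower in neurons were all outside the clusters. Pcdh10 had 13.5 CPM in neurons and 65.5 CPM in progenitors (-2.28, -2.60 to -1.95). Cdh20, a type II cadherin, had 0.500 CPM and 6.13 CPM (-3.61, -5.18 to -2.18). Cdh4 had 28.0 CPM and 60.3 CPM (-1.11, -1.40 to -0.81), although newborn excitatory neuron-like cells were among its highest clusters, and Cdh24 had 6.86 CPM and 15.6 CPM (-1.18, -1.76 to -0.56). Cdh2 was at 187 CPM in neurons and 202 CPM in progenitors (-0.11, -0.26 to 0.04).

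Summed over all 57 genes, clustered protocadherins were at 104 CPM (98.8 to 110) in E18 neurons and 47.1 CPM (38.4 to 57.3) in progenitors, a log2 ratio of 1.14 (0.85 to 1.45). The rise lay in the beta sum, at 64.3 CPM in neurons and 14.1 CPM in progenitors (2.19, 1.66 to 2.76), and the alpha sum, with 109 UMIs in neurons and 3 in progenitors (2.46, 0.88 to 4.76). The gamma sum was at 31.9 CPM in neurons and 31.6 CPM in progenitors (0.02, -0.36 to 0.41). By cluster, the beta sum spanned 40.6 to 81.1 CPM in the excitatory clusters and 6.14 to 21.9 CPM in the progenitor clusters, which do not overlap, while the gamma ranges of 22.7 to 48.2 CPM and 21.5 to 53.8 CPM do.

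In the P2 library the neurons were 765 inhibitory neuroblast- and interneuron-like cells, and the 597 progenitor-like cells held stem cell-like, cycling and inhibitory intermediate progenitor-like clusters. Of 92 members 71 were tested, 21 were higher and 6 lower in neurons, where 9.92% of all genes tested were higher, 18% lower and 28% either. Of the clustered genes tested, 17 of 48 were higher and 0 lower: 8 of 10 alpha, 8 of 18 beta and 1 of 20 gamma genes. Outside the clusters, 4 of 23 were higher and 6 lower.

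The alpha genes led. Pcdha11 (ENSMUSG00000102206) had 6.52 CPM in P2 neurons and 1.31 CPM in progenitors (log2 ratio 2.32, 1.55 to 3.14), and Pcdha4 had 1.89 CPM and 0.276 CPM (2.78, 1.18 to 4.801). Pcdha9 had 3.37 CPM and 0.827 CPM (2.02, 1.03 to 3.12), and Pcdha12 had 2.94 CPM and 0.758 CPM (1.96, 0.91 to 3.11). Pcdha5 and Pcdha8 had 13 and 10 UMIs in neurons and 3 and 2 in progenitors. These were low counts, and the alpha genes share a 3′ exon in most of their transcripts. Of the beta genes, Pcdhb16 had 4.63 CPM in neurons and 0.965 CPM in progenitors (2.26, 1.37 to 3.24), Pcdhb5 had 20 and 7 UMIs (2.12, 0.82 to 3.61) and Pcdhb7 had 7.47 CPM and 2.96 CPM (1.33, 0.77 to 1.91). The gamma gene was Pcdhga4, with 12 UMIs in neurons and 3 in progenitors.

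Outside the clusters, Pcdh9 was higher in P2 neurons, at 154 CPM against 54.2 CPM in progenitors (log2 ratio 1.51, 1.38 to 1.64), and so was Cdh8, at 11.8 CPM and 3.17 CPM (1.89, 1.39 to 2.42). Not all neuron clusters shared these rises. Pcdh9 was at 74.3 CPM in medial ganglionic eminence interneuron-like cells, against 84.7 CPM in Ube2c-led cycling cells. Cdh8 was at 0.897 CPM in caudal ganglionic eminence interneuron-like and 3.43 CPM in St18- and Sp8-led cells, against 8.87 CPM in Pclaf-led cycling cells. The other 2 higher members were Cdh12 and Cdh22, with 12 and 50 UMIs in neurons and 5 and 31 in progenitors. The 6 lower members were mostly type II cadherins. Cdh10 had 2.73 CPM in neurons and 13.0 CPM in progenitors (-2.25, -2.90 to -1.65), and Cdh11 had 4.52 CPM and 14.6 CPM (-1.69, -2.20 to -1.21). Cdh7 had 0.736 CPM and 4.55 CPM (-2.63, -4.00 to -1.51), Cdh20 had 1.47 CPM and 7.31 CPM (-2.31, -3.23 to -1.50), and Cdh6 had 1.79 CPM and 5.03 CPM (-1.49, -2.35 to -0.72). The sixth was Pcdh20, with 7 UMIs in neurons and 43 in progenitors (-2.01, -3.41 to -0.84). Not all progenitor clusters shared these levels. Cdh11 was at 45.0, 28.0 and 30.4 CPM in the stem cell-like, Egfr-led and Olig1-led clusters. In the remaining progenitor clusters it was at 1.40 to 3.14 CPM, below the 12.3 CPM of medial ganglionic eminence interneuron-like cells. Cdh6 in those remaining clusters was at 0.314 to 2.42 CPM, against 0 to 2.53 CPM in neuron clusters of 25 or more cells. The 9 oligodendrocyte precursor markers summed to 20.0 CPM in P2 neurons and 632 CPM in progenitors, and the 10 maturing astrocyte markers to 99.8 CPM and 870 CPM, with 0 of either list higher in neurons. Their part in these differences was not tested, while Cdh6, Cdh10 and Cdh11 stood at 35.3, 41.7 and 41.0 CPM in the oligodendrocyte precursor-like cluster, which is in neither group. Cdh11 and Pcdh20 were higher in neurons at E18 and lower at P2, in comparisons of different neuron types.

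The sum over clustered genes was at 149 CPM (142 to 157) in P2 neurons and 92.8 CPM (87.9 to 97.9) in progenitors, a log2 ratio of 0.69 (0.58 to 0.79). The alpha sum was at 24.5 CPM in neurons and 6.34 CPM in progenitors (1.95, 1.60 to 2.31), the beta sum at 44.9 CPM and 19.4 CPM (1.21, 0.99 to 1.43) and the gamma sum at 79.9 CPM and 67.0 CPM (0.25, 0.12 to 0.39). By cluster the alpha sum spanned 16.4 to 32.6 CPM in neurons and 1.40 to 10.2 CPM in progenitors, which do not overlap. The beta ranges of 28.2 to 71.9 CPM and 12.6 to 31.6 CPM overlap. So do the gamma ranges of 62.9 to 93.1 CPM and 52.7 to 98.5 CPM. The Foxp2-led P2 cluster of 227 cells and the Six3-led cluster were left out of the neurons. Among the 10 leading genes of each, 2 marked another class and 0 their own. A smaller Foxp2-led cluster of 24 cells stayed in the neurons. It is not in the ranges by cluster, which cover clusters of 25 or more cells. With both put back, the ratio of all clustered genes was 0.84 and that of beta genes 1.49. The alpha and beta ratios were positive in both libraries, although the neurons were excitatory at E18 and inhibitory at P2.

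Outside the clusters, the delta1 ratio was positive in both libraries and the type II and delta2 ratios had opposite signs. The summed delta1 protocadherins were at 195 CPM in P2 neurons and 91.8 CPM in progenitors (log2 ratio 1.08), and at 169 CPM and 31.1 CPM at E18 (2.44). The type II cadherins were at 51.6 CPM in P2 neurons and 74.6 CPM in progenitors (-0.53), and at 149 CPM and 82.5 CPM at E18 (0.86). The delta2 sums were at 173 CPM and 221 CPM at P2 (-0.35), and at 197 CPM and 141 CPM at E18 (0.48). By cluster, the E18 delta1 ranges did not overlap, at 97.6 to 357 CPM in neurons and 23.5 to 36.4 CPM in progenitors. The other ranges did. At P2 those of delta1 were 128 to 279 and 36.8 to 134 CPM. The type II ranges were 36.9 to 76.0 and 40.0 to 122 CPM at P2. At E18 they were 85.2 to 258 and 58.2 to 118 CPM. The delta2 ranges were 120 to 291 and 103 to 563 CPM at P2, the 563 CPM in stem cell-like cells. At E18 they were 68.6 to 324 and 65.6 to 242 CPM.

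**Figure D3:**
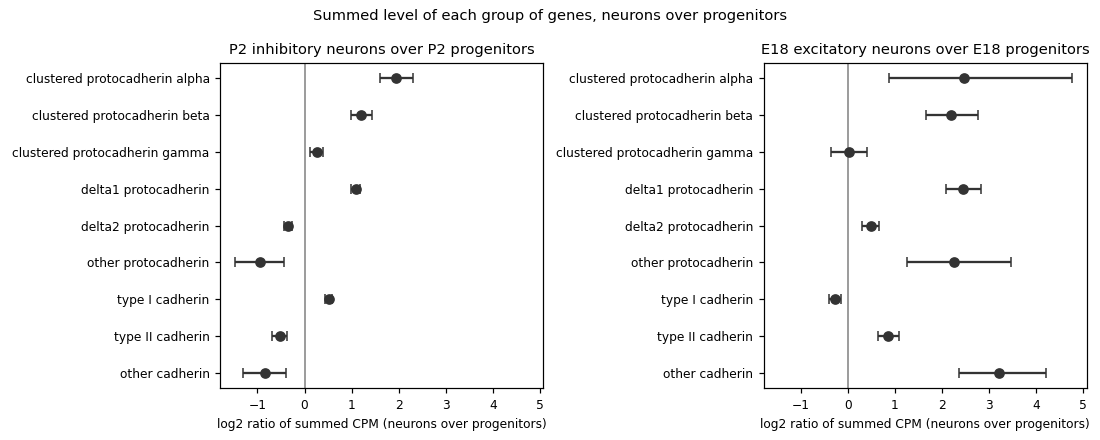
Log2 ratio of the summed level of each group of genes (rows), neurons over progenitors, for inhibitory neuroblast- and interneuron-like cells of the P2 library on the left and excitatory neuron-like cells of the E18 library on the right; bars are exact conditional 95% counting intervals. The alpha sums (1.95 at P2, 2.46 at E18) and beta sums (1.21 and 2.19) lie above 0 in both libraries, the gamma sums (0.25 and 0.02) lie near 0, and the type II cadherin sums lie on opposite sides (-0.53 and 0.86).

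Within P2 neurons, striatal projection neuron-like cells carried more clustered protocadherin RNA than inhibitory neuroblast- and interneuron-like cells. The sum was at 271 CPM in striatal-like cells and 149 CPM in the others (log2 ratio 0.86, 0.72 to 1.00), with alpha at 57.8 CPM and 24.5 CPM, beta at 106 CPM and 44.9 CPM and gamma at 108 CPM and 79.9 CPM. The Foxp2-led cluster of 227 cells, which is in neither group, had a clustered sum of 251 CPM (229 to 276), which overlaps the 270 CPM (247 to 293) of the larger striatal-like cluster. Of 68 members tested, 26 were higher and 3 lower in striatal-like cells, where 10.2% of all genes were higher, 11.2% lower and 21.4% either. Cdh8 was at 120 CPM in striatal-like cells and 11.8 CPM in the others (3.34, 3.02 to 3.67), Cdh13 at 61.3 CPM and 5.89 CPM (3.38, 2.92 to 3.85), and Pcdh7 at 76.3 CPM and 11.99 CPM (2.67, 2.32 to 3.02). Pcdh9 moved the other way, at 7.06 CPM in striatal-like cells and 154 CPM in the others (-4.45, -5.26 to -3.74). Pcdh8 was also lower, at 19.9 CPM and 53.5 CPM (-1.43, -1.90 to -0.99), as was Cdh22, with 0 UMIs against 50. The Cdh13 and Pcdh7 levels were not shared by the smaller striatal-like cluster. It had 3 UMIs of Cdh13 (10.9 CPM) and 21.7 CPM of Pcdh7, against 24.3 CPM of Pcdh7 in the Prokr2-led cluster. Cdh13 was at 54.0 CPM in the Foxp2-led cluster of 227 cells.

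Glia were set apart by asking how oligodendrocyte precursor-like cells (82 at P2, 49 at E18) differ from stem cell-like cells (120 at P2, 91 at E18) of the same library. At P2, 16 of 38 members tested were higher and 3 lower, where 13.3% of all genes were higher, 13.9% lower and 27.3% either. At E18, 5 of 12 members were higher and 4 lower, where 6.2% of all genes were higher, 11.9% lower and 18.1% either. Pcdh15 was at 181 CPM in P2 precursors and 19.6 CPM in stem cells (log2 ratio 3.21, 2.73 to 3.72), and had 18 and 7 UMIs at E18 (2.07, 0.74 to 3.57). Pcdh11x was at 189 CPM and 25.8 CPM at P2 (2.87, 2.45 to 3.32), and had 26 UMIs and 1 UMI at E18 (5.40, 2.80 to 10.8). Pcdh9, Pcdh17 and Cdh13 were the other 3 members higher at E18, and were higher at P2 too.

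The beta cluster rose in P2 oligodendrocyte precursor-like cells while the gamma cluster did not pass 2-fold. The beta sum was at 79.5 CPM in precursors and 17.2 CPM in stem cells (log2 ratio 2.21, 1.66 to 2.78), and the gamma sum at 112 CPM and 98.5 CPM (0.18, -0.12 to 0.48). Pcdhb7 had 28 UMIs in precursors and 2 in stem cells (4.21, 2.22 to 7.32), Pcdhb21 had 18 and 1 (4.57, 1.91 to 9.95), and Pcdhb17 had 12 and 0, at least 5.28-fold higher. Cdh2, Cdh4 and Pcdh8 were lower in precursors at both ages. Cdh2 was at 133 CPM in P2 precursors and 287 CPM in stem cells (-1.11, -1.34 to -0.88), and at 56.3 CPM and 380 CPM at E18 (-2.76, -3.52 to -2.08). Pcdh10, at 56.3 CPM and 124 CPM, was lower in precursors at E18 (-1.14, -1.95 to -0.38), and at P2 it was at 221 CPM and 334 CPM.

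The second set of comparisons set P2 cells against E18 cells of the same kind, in which age cannot be told apart from dissection, mouse line and library. In stem cell-like cells, 10 of 25 members tested were higher and 0 lower at P2, where 14.8% of all genes were higher, 4.18% lower and 19% either, and the median gene lay 0.27 higher on the log2 scale. Cdh11 had 94 UMIs (45.0 CPM) at P2 and 2 UMIs (3.64 CPM) at E18 (log2 ratio 3.63, 1.73 to 6.69), and Pcdh11x had 54 and 1 (3.83, 1.29 to 9.16). Pcdh10 was at 334 CPM at P2 and 124 CPM at E18 (1.43, 1.07 to 1.81). Pcdh7 was at 50.7 CPM and 10.9 CPM (2.22, 1.05 to 3.69), and Pcdh17 at 104 CPM and 40.0 CPM (1.38, 0.75 to 2.08).

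Cdh10 was at 39.2 CPM in P2 and 10.9 CPM in E18 stem cell-like cells (log2 ratio 1.84, 0.66 to 3.33), and Pcdh9 at 52.6 CPM and 18.2 CPM (1.53, 0.60 to 2.63). Among gamma genes, Pcdhgc3 had 45 UMIs at P2 and 1 at E18 (3.56, 1.01 to 8.90), and Pcdhgc5 had 23 and 0, at least 2.01-fold higher at the floor of 3 UMIs, with the lower end of its interval at a log2 ratio of 0.60. Cdh13 was at 24.9 CPM at P2 and 9.10 CPM at E18 (1.45, 0.14 to 3.13), and it turned round to -0.16 with finer clusters. The gamma sum was at 98.5 CPM at P2 and 25.5 CPM at E18 (1.95, 1.17 to 2.85), while the beta sum was at 17.2 CPM and 20.0 CPM (-0.22, -1.22 to 0.91). The alpha sum rested on 12 UMIs at P2 and 1 at E18 (1.66, -1.10 to 7.07), an interval that overlaps those of beta and gamma. The sum of all clustered genes was at 122 CPM and 47.3 CPM (1.36, 0.78 to 2.00). Maturing astrocyte markers summed to 3716 CPM in the P2 cells and 1855 CPM in the E18 cells, with 10 of 10 higher at P2, and oligodendrocyte precursor markers to 353 CPM and 54.6 CPM, and their part in these differences was not tested.

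For cycling cells, the 71 cells of the Ube2c-led P2 cluster were set against 102 E18 cells. The P2 cycling clusters led by Pclaf and by Egfr were left out, because 1 leading gene of each marked another class and 0 their own. In this comparison, 4 of 23 members tested were higher and 5 lower at P2, where 15.8% of all genes were higher, 13.1% lower and 29% either. Pcdh9 was at 84.7 CPM at P2 and 14.3 CPM at E18 (log2 ratio 2.56, 1.78 to 3.46). Pcdhb7 (20 UMIs at P2, 1 at E18), Pcdh1 (27 and 3) and Pcdhga12 (31 and 5) were the other 3. The 5 lower members were all classical cadherins: Cdh4, at 11.6 CPM at P2 and 50.1 CPM at E18 (-2.11, -2.86 to -1.38), Cdh6 (2 and 9 UMIs), Cdh20 (3 and 9), Cdh8 (5 and 10) and Cdh10 (10 and 12). These differences did not all hold in the P2 cycling clusters left out. In the Egfr-led cluster, Cdh4, Cdh6, Cdh20 and Cdh10 were at 40.6, 8.87, 19.6 and 17.3 CPM. At E18 they were at 50.1, 9.21, 9.21 and 12.3 CPM. Cdh8 had 0 UMIs in the Egfr-led cluster. In the Pclaf-led cluster all 5 were below their E18 level. The clustered sum was at 106 CPM at P2 and 28.6 CPM at E18 (1.88, 1.31 to 2.50), with beta at 31.6 CPM and 6.14 CPM (2.37, 1.17 to 3.86) and gamma at 63.7 CPM and 21.5 CPM (1.57, 0.90 to 2.31). Beta and gamma sums were thus both higher in the Ube2c-led P2 cells, where the sum of the other members was at 467 CPM and 435 CPM (0.10, -0.06 to 0.27). In the Pclaf-led and Egfr-led clusters the beta sum was at 12.6 and 15.9 CPM and the gamma sum at 52.7 and 70.0 CPM. The 11 inhibitory neuroblast markers summed to 3778 CPM in P2 and 612 CPM in E18 cycling cells, all 11 of them higher at P2, and excitatory neuron markers to 28.8 CPM and 260 CPM. The stem cell markers summed to 2175 CPM and 11495 CPM. Their part in these differences was not tested.

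In oligodendrocyte precursor-like cells, 12 of 29 members tested were higher and 0 lower at P2, where 17.2% of all genes were higher, 4% lower and 21.2% either, and the median gene lay 0.43 higher on the log2 scale. Pcdh7 was at 104 CPM at P2 and 17.8 CPM at E18 (log2 ratio 2.54, 1.39 to 4.01), Pcdh10 at 221 CPM and 56.3 CPM (1.97, 1.31 to 2.72) and Cdh10 at 41.7 CPM and 2.96 CPM (3.81, 1.28 to 9.14). Pcdh15 was at 181 CPM and 53.4 CPM (1.76, 1.08 to 2.54), Pcdh17 at 297 CPM and 116 CPM (1.36, 0.89 to 1.87), Cdh13 at 102 CPM and 29.6 CPM (1.78, 0.86 to 2.86) and Pcdh11x at 189 CPM and 77.1 CPM (1.29, 0.71 to 1.93). Cdh2 (1.24), Pcdh9 (1.20), Pcdh8 (1.39), Cdh6 (1.58) and Cdh24 (2.63) completed the list, and all 12 were outside the clusters. The clustered genes had fewer UMIs each, and their sum was higher at P2 by the same log2 ratio as the sum of the other members: 203 CPM at P2 and 71.2 CPM at E18 for the clustered genes (1.51, 0.91 to 2.17), and 1648 CPM and 578 CPM for the others (1.51, 1.30 to 1.73). The gamma ratio was 1.65 (0.81 to 2.63) and the beta ratio 1.16 (0.31 to 2.15). With TMM scaling 7 members were called, and relative to the median gene 5. Cdh2, Cdh6, Cdh24, Pcdh8, Pcdh9, Pcdh11x and Pcdh17 were not called relative to the median gene, and Pcdh9 was at 0.77 there. Oligodendrocyte markers summed to 1965 CPM in the P2 cells and 47.4 CPM in the E18 cells, with 7 of 7 higher at P2, and their part in these differences was not tested.

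**Figure D4:**
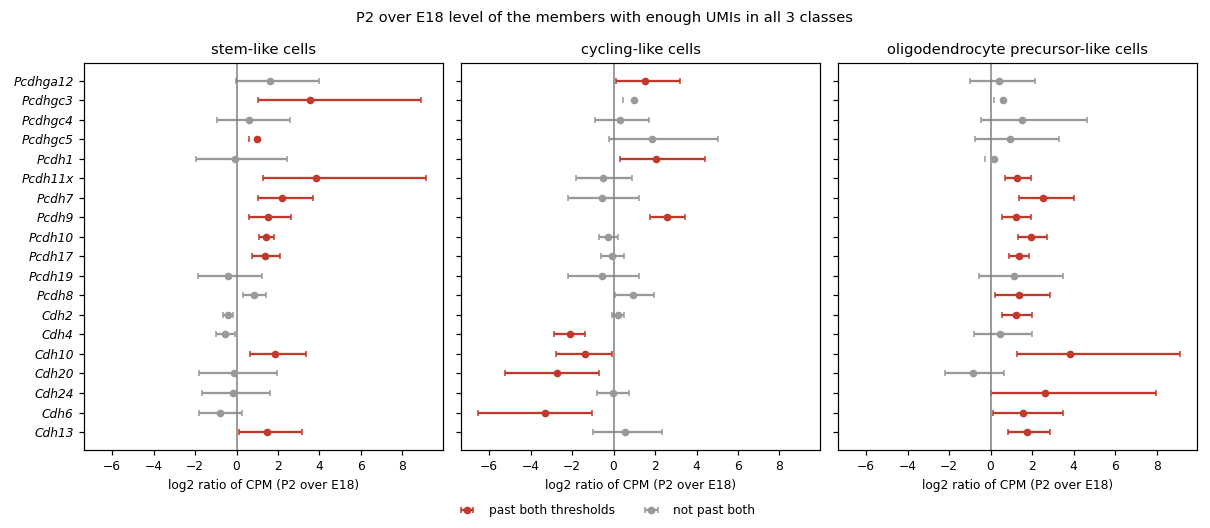
Log2 ratio of P2 over E18 levels for 19 members in stem cell-like, cycling and oligodendrocyte precursor-like cells (panels); bars are exact conditional 95% counting intervals, red marks called members, and members with 0 UMIs at E18 are drawn at their floor with no upper bound. Pcdh9 is called in all 3 panels (1.53, 2.56 and 1.20). The last falls to 0.77, under 2-fold, relative to the median gene. The lower calls, such as Cdh4 (-2.11), are all in cycling cells, which at P2 are the Ube2c-led cluster only.

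Among P2 inhibitory neuroblast- and interneuron-like cells, 263 cells with an EYFP transcript were set against 502 without, to compare cells of the cortical lineage with the rest. A cell without EYFP UMIs may still belong to the lineage, since detection depends on depth. Of 58 members tested, 1 was higher and 1 lower in cells with EYFP, where 0.95% of all genes were higher, 1.14% lower and 2.09% either. Pcdh7 was at 18.3 CPM in cells with EYFP and 7.52 CPM in cells without (log2 ratio 1.29, 0.72 to 1.87). Within the Prokr2-led cluster, 2 of 27 members tested were higher and 1 lower in cells with EYFP, where 1.8% of all genes were higher, 1.17% lower and 2.97% either, and Pcdh7 was among the higher, at 34.2 CPM with EYFP and 16.6 CPM without (1.04, 0.30 to 1.81). Within the caudal ganglionic eminence-like cluster, 1 of 26 was higher and 0 lower, where 1.27% of all genes were higher, 1.01% lower and 2.28% either, and it was Pcdh7, at 19.1 CPM and 4.52 CPM (2.08, 0.65 to 3.64). Within the St18- and Sp8-led cluster, 0 of 21 were higher and 0 lower, where 1.65% of all genes were higher, 1.31% lower and 2.96% either. The Pcdh7 ratio fell below 2-fold, to between 0.82 and 0.87, without doublet removal, with coarser clusters or with members in the clustering. Cdh22 was at 3.31 CPM in cells with EYFP and 6.63 CPM in cells without (-1.001, -2.04 to -0.06).

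A list of 40 genes that work with these proteins was counted in the same way: catenins, giant and seven-pass cadherins, regulators of the clustered promoters, and signalling and cleavage factors. In P2 neurons over progenitors, 6 of 37 tested were higher and 5 lower, where 9.92% of all genes were higher and 18% lower. In E18 neurons over progenitors, 9 of 37 were higher and 6 lower, where 14.3% and 18.3% of all genes were. The calsyntenin Clstn3 was among the highest in both, and Celsr1, a seven-pass cadherin of planar polarity, was the lowest in both, at 1.37 CPM in P2 neurons and 17.0 CPM in progenitors (log2 ratio -3.64) and at 3.22 CPM and 55.1 CPM at E18 (-4.10). Fat1, a giant cadherin, was also lower in both, with log2 ratios of -3.10 at P2 and -1.70 at E18, and so was the cohesin subunit Rad21, which with CTCF shapes promoter choice in the clusters, with -1.24 and -1.36. Jup, which encodes the catenin plakoglobin, was higher in both, with 2.04 and 3.20. For P2 over E18, 6 of 32 were higher and 0 lower in stem cell-like cells, where 14.8% and 4.18% of all genes were. In cycling cells 9 of 35 were higher and 2 lower, where 15.8% and 13.1% of all genes were, and in oligodendrocyte precursor-like cells 12 of 33 were higher and 0 lower, where 17.2% and 4% were. Between cells with EYFP and without, Clstn2 and Fat3 were the 2 of 37 that were higher (1.60 and 1.23) and 0 were lower, where 0.95% and 1.14% of all genes were.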

How the data were processed

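Single-cell libraries of 1 P2 and 1 E18 forebrain sample were deposited as gene-by-cell matrices of UMI counts, made by the authors with Cell Ranger 4.0.0 per the file headers and mapped to mm10 per the submitters' processing notes; the labels and headers do not give the library chemistry. Gene and barcode lists (unit other) were deposited beside them and were used as names. There were 2778 P2 barcodes with 42572208 UMIs and 2922 E18 barcodes with 19986915 UMIs. Cells with under 500 genes or over 10% mitochondrial UMIs were removed (336 P2, 291 E18), and the 5% of cells with the highest Scrublet scores were removed as doublets (144 P2, 156 E18), because the automatic threshold marked only 5 and 42. Another 2 P2 and 1 E18 cells were set aside.

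Cells were clustered with scanpy 1.11.5 (2000 variable genes without members, 30 components, 15 neighbours, leidenalg 0.10.2, igraph 0.11.9, scikit-learn 1.9.0, resolution 1) and named as X-like from 26 marker lists, at least 4 markers with 20 or more UMIs and a score of 0.35 or more. These naming thresholds were chosen after seeing the data. Clusters rested on rebuilt names, since no deposited annotation was used. UMIs were summed per cluster or pool and given as CPM with exact Poisson intervals, shares with Clopper-Pearson intervals and ratios with exact conditional intervals (scipy 1.17.1), at 95%. With 1 library per age, 0 tests were run, and intervals cover counting error only. The ratio and interval code was tested on data simulated with counting error only. Of 100 genes changed 4-fold, all picked among genes with 100 or more UMIs, 99 or 100 were called in each comparison. Between 77 and 168 unchanged genes were called too, where 10537 to 14335 genes were tested. The recovery of changes in genes with fewer UMIs, as many members have, was not tested.

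Named members were those reaching 50 CPM in a cluster of 25 or more cells, up to 12 called per direction and comparison ranked by the interval bound nearest 0, and those with 0 UMIs. Members, lists and rules were chosen with earlier results of these data known. Alternatives were another scaling (edgeR 4.0.16 TMM), count minimum, cell filter, doublet step, resolution and members in the clustering. Locus structure came from GENCODE vM21 and promoters from RefSeq, GRCm38.p6.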

Additional observations from a re-analysis of the deposited data

How the results depend on the processing

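Of the main results under the alternatives, 89 values stayed within their range of the reported value and 13 moved. For P2 neurons over progenitors, the ratio of all clustered genes (0.69) was 0.80 without doublet removal, 0.82 with members in the clustering and 0.84 with the Foxp2- and Six3-led clusters put back; the beta ratio (1.21) was 1.45 and 1.49 under the last 2, and the alpha ratio (1.95) was 2.35 with finer clusters. With 50 or more UMIs required, 14 members were called in that comparison (27 reported) and 2 between P2 and E18 cycling cells (9 reported). Between P2 and E18 oligodendrocyte precursor-like cells, 7 were called with TMM scaling and 5 relative to the median gene (12 reported). For cells with EYFP over without, 6 were called without doublet removal, 7 with coarser clusters and 6 with members in the clustering (2 reported). For single members and counts by direction, 669 values were alike, 100 lost the call, 20 moved and 3 reversed: Cdh8 in E18 neurons over progenitors (-0.20 at a mitochondrial share of at most 5%), Pcdh15 in the same comparison (-0.0605 with coarser clusters) and Cdh13 in P2 over E18 stem cell-like cells (-0.16 with finer clusters). The cause was not tested. Coarser clusters gave no stem cell-like or oligodendrocyte precursor-like class in at least 1 library, so those alternatives were not run. Clusters put back, the median shift and the EYFP alternatives were chosen after seeing the data. No paired analysis was possible because each age is 1 library. Depth limits most clustered genes: the kept cells held 1776 clustered UMIs at E18, and single genes rest on few.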
